A study of Homo sapiens with 15 samples.

Results

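The redox defence genes of LNCaP cells were examined as a set of 37 genes of the thioredoxin, peroxiredoxin and glutathione systems, the antioxidant enzymes beside them and the transcription factor NRF2 with its regulator KEAP1. They were chosen by gene symbol and known function, with earlier results of these data known. Of the 37, 34 had a row among the 17272 genes of the expression table. Listed genes without a row were GPX3, GSTP1 and SRXN1, which were not analysed here. LNCaP is an established line of human prostate cancer cells that respond to androgen. R1881 (methyltrienolone) activates the androgen receptor, and enzalutamide blocks it. All cells, of this 1 line, were kept without androgen for 2 days, then received 1 nM R1881 with the solvent DMSO (10 libraries, called R1881) or 1 nM R1881 with 2 µM enzalutamide (5 libraries, called R1881 + enzalutamide), and were collected after 22 h. Cells without R1881, and cells given enzalutamide alone, were not part of the comparison, so that every value describes enzalutamide on top of androgen.

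Polyadenylated RNA was sequenced to a depth of 15830745 to 25416052 reads assigned to genes in each library. Values are counts scaled by library (CPM, for a library total near 1000000), as deposited. The deposited totals differed by treatment, at 1053406 to 1078567 in the R1881 libraries and 985580 to 1008992 in those with enzalutamide. The limma test was run on log2(CPM + 0.5) for the 17046 genes averaging 0.5 CPM or more, and differences were called at a Benjamini-Hochberg adjusted p under 0.05. Fold changes are given on this scale, as R1881 + enzalutamide minus R1881. The androgen-induced genes FKBP5, KLK2, TMPRSS2 and KLK3, examined as a check, were lower with enzalutamide, with log2 fold changes from -4.99 to -3.55. The 6 luminal prostate markers were all present, with a summed level of 3911 to 4557 CPM with R1881 and 3235 to 3330 CPM with enzalutamide, while 4 of 11 markers of basal, immune, endothelial, stromal and neuroendocrine cells had a row (KRT14, COL1A1, ACTA2 and SYP), with sums of 10.1 to 14.9 CPM and 12.3 to 17.6 CPM. In the labels the R1881 libraries are numbered 51 to 55 and 71 to 75 and those with enzalutamide 81 to 85. What these numbers stand for is unknown here, and no number series holds both treatments, so that a difference between series and the treatment cannot be told apart.

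Cells remove hydrogen peroxide and lipid peroxides with thiol chemistry. In the thioredoxin branch, peroxiredoxins reduce peroxides, thioredoxin reduces the peroxiredoxins, and thioredoxin reductase restores thioredoxin with electrons from NADPH. In the glutathione branch, glutathione is made by glutamate-cysteine ligase and glutathione synthetase, is spent by glutathione peroxidases and transferases, and is restored by glutathione reductase, also at the cost of NADPH. NRF2, encoded by NFE2L2, is held low by KEAP1-directed degradation, and under oxidative or electrophilic stress it raises many of these genes through antioxidant response elements. In prostate cancer cells the androgen receptor is known to shape metabolism widely, and the loss of GSTP1 expression is a well-known feature of this tumor type.

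The promoter windows of the set, from 250 bases before to 50 bases after each start site, were read from RefSeq (GRCh38.p14), which gave 44 windows for 28 of the 37 genes. PRDX6, GSR, HMOX1, GSS, PRDX1, TXN2, SOD1, MGST2 and MSRA had no window and were not searched. They were searched on both strands for the antioxidant response element core TGACNNNGC, the E-box CACGTG, the androgen receptor site AGAACA, the full androgen response element (AGAACA and TGTTCT, 3 bases apart) and a carbohydrate response element (2 copies of CACGNG, 5 bases apart). The full androgen element contains the single site, and the carbohydrate element may contain an E-box. The antioxidant core was in 7 of these 44 windows, beside 13.3% of all 35116 windows, and the carbohydrate element was in 1, that of TXNIP, beside 0.0570%. An E-box was in 4 windows (7.26% of all), a single androgen site in 6 (14.8% of all) and a full androgen element in 0 (1 of all 35116 windows). A match describes letters, not binding, and these motifs were picked with the results known. Shown first are the 100 bases upstream of the TXNIP start site, the gene that rose most in the set, with the carbohydrate element in capitals.
TXNIP (chr1:145996580-145996679, minus strand): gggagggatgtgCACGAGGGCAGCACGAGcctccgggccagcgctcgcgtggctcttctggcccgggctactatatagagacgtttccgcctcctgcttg
Shown next, with the motif in capitals and 10 bases on each side, is the match nearest a start site for 6 genes with an antioxidant core or an E-box. GCLM and KEAP1 carried the same 9 letters, and PRDX4 and HMOX2 were genes with an E-box that fell. The other genes with an E-box, GPX1 and PRDX3, were not called.
GCLM (antioxidant response core, chr1:93909446-93909474, minus strand): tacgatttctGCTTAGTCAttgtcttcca
KEAP1 (antioxidant response core, chr19:10502784-10502812, minus strand): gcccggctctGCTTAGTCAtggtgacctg
TXNRD1 (antioxidant response core, chr12:104215761-104215789, plus strand): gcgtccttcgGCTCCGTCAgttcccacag
GSTO1 (antioxidant response core, chr10:104254721-104254749, plus strand): cgagatgcttTGACACAGCcccttaagat
PRDX4 (E-box, chrX:23667400-23667425, plus strand): ggccggcgccCACGTGgcggggcggg
HMOX2 (E-box, chr16:4474698-4474723, plus strand): ccgccccaggCACGTGcacagtgagt
The genes with an antioxidant core in a window and a row in the table were GCLM, KEAP1, TXNRD1, GSTO1 and MGST1, and their log2 fold changes were -0.57, -0.18, -0.11, 0.01 and 0.10. The windows searched for GCLC and NQO1 did not hold these letters. Bases further from a start site were not searched, so that an element outside the windows would be missed.

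With enzalutamide, redox genes were found both higher and lower, and the largest differences were in 3 genes of separate systems. TXNIP, the inhibitor of thioredoxin, rose 2.48-fold in median CPM, while PRDX6, a peroxiredoxin that repairs oxidized phospholipids, fell by 52.0%. GSR, glutathione reductase, fell by 55.4%. Decreases were also found for PRDX4, GCLM, HMOX2, MGST3, GSS and NQO2, and increases for GSTK1, HMOX1, NQO1 and CAT. Of the 34 genes, 6 were called higher and 13 lower, and 15 were not called. Over all 17046 genes tested 62.5% were called, 29.8% higher and 32.7% lower, so that calls were common everywhere in this comparison. The treatments did not overlap for 11 of the 34 genes (4 higher and 7 lower), beside 37.2% of all genes (17.1% higher and 20.1% lower). A change of at least 1.5-fold was found for 1 gene higher and 3 lower, beside 9.06% and 9.55% of all genes. The median absolute log2 fold change was 0.14 in the set and 0.24 over all genes tested, and the median log2 fold change was -0.01 in both. Fewer cells of a type and less RNA per cell cannot be told apart in these bulk samples.

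The size of the calls differed. Of the 19 genes called, 13 (5 higher and 8 lower) kept their call and direction under every alternative test, scaling and left-out library that tested them: TXNIP, GSTK1, HMOX1, NQO1 and CAT higher, and GSR, PRDX6, PRDX4, GCLM, HMOX2, MGST3, GSS and NQO2 lower. Calls of the other 6 (KEAP1, NFE2L2, TXN, TXNRD1, NFE2L1 and MGST1), all with an absolute log2 fold change of at most 0.18, were lost under at least 1 alternative. With library totals set to 1000000 in place of the deposited scaling, 14 of the 34 genes were called higher and 8 lower, as over all genes the share of calls that were higher went from 47.7% to 60.7%. Against each R1881 series alone, 14 of the 34 genes were called in the same direction both times, beside 50.7% of all genes tested.

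**Figure D1:**
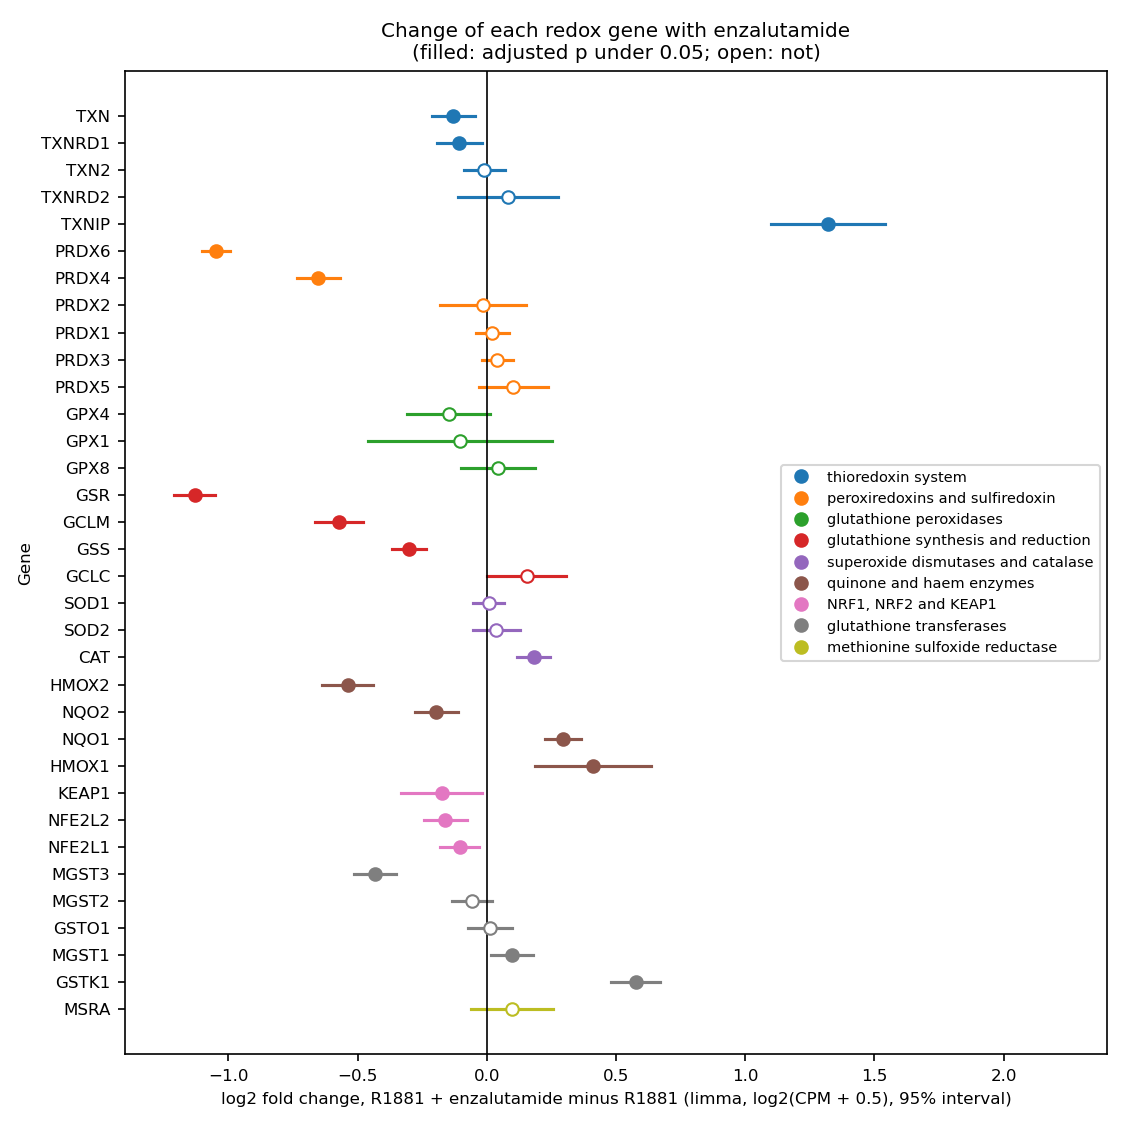
Log2 fold change of each of the 34 redox genes with its 95% interval (limma), on the x axis as R1881 + enzalutamide minus R1881, with genes on the y axis grouped and coloured by role. Filled points are the 19 genes called, and TXNIP at 1.32, PRDX6 at -1.05 and GSR at -1.13 lie furthest from 0.

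Within the thioredoxin system the inhibitor TXNIP rose, and the 4 other genes had log2 fold changes from -0.13 to 0.08. TXNIP (thioredoxin-interacting protein, which binds reduced thioredoxin and also restrains glucose uptake, at chromosome 1, 145992435 to 145996579, minus strand, 8 exons in its canonical transcript on GRCh38, GENCODE v44) had a lowest, median and highest value of 129.7, 165 and 203 CPM in the 10 R1881 libraries. In the 5 R1881 + enzalutamide libraries, in replicate order, it held 437, 391.5, 414, 408 and 397 CPM. Every library with enzalutamide thus lay far above every R1881 library, and the log2 fold change was 1.32 ± 0.106 (SE, limma, adjusted p = 7.06e-10). The R1881 libraries themselves fell apart by series for this gene, with 137 ± 6.78 CPM (SD, n = 5) in libraries 51 to 55 and 195 ± 9.63 CPM (SD, n = 5) in libraries 71 to 75, which did not overlap. The log2 fold change was accordingly 1.58 against libraries 51 to 55 and 1.07 against libraries 71 to 75, both called. TXN, cytosolic thioredoxin itself, ranged over 143, 151 and 163 CPM (lowest, median and highest) with R1881 and was at 144, 128, 148, 140.4 and 139.8 CPM with enzalutamide. Its groups overlapped, and its log2 fold change was -0.13 ± 0.040 (SE, limma, adjusted p = 0.00805). The call was lost with library totals set to 1000000, at -0.04 (limma, adjusted p = 0.405), and against libraries 71 to 75 alone, at -0.09.

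TXNRD1, the cytosolic thioredoxin reductase, spanned 374, 420.3 and 445 CPM with R1881 against 408, 365, 368, 404 and 398 CPM with enzalutamide, overlapping ranges with a log2 fold change of -0.11 ± 0.042 (SE, limma, adjusted p = 0.0315). This call was lost with the same rescaling, by edgeR (-0.06) and DESeq2 (-0.09), against libraries 71 to 75 alone (-0.06) and without any 1 of 4 libraries (R1881 replicates 2 and 7 and R1881 + enzalutamide replicates 2 and 3). The mitochondrial pair was not called: TXN2 had a 95% interval of -0.09 to 0.07 for its log2 fold change, and TXNRD2, the reductase that restores it, had one of -0.11 to 0.27. Since TXNIP acts on TXN, the log2 ratio of TXNIP to TXN was followed in each library. It was lowest -0.28, median 0.11 and highest 0.44 with R1881, and with enzalutamide the replicates were at 1.60, 1.61, 1.48, 1.53 and 1.504. The difference was 1.45 (two-sided exact permutation of 15 library labels, p = 0.000333, which is the lower limit of the design, and p = 0.0005 after Benjamini-Hochberg adjustment over 3 ratios). TXNIP alone already parted the treatments, and the genes were chosen with earlier results known, so this test adds little beyond the TXNIP values. The mean ratio was -0.20 in libraries 51 to 55 and 0.39 in libraries 71 to 75, beside 1.55 with enzalutamide. TXNIP rose by 1.32 and TXN fell by 0.13 on the same scale.

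Among the peroxiredoxins, which share the work of reducing peroxides, 2 of 6 fell and 4 were not called, beside 32.7% lower over all genes tested. PRDX6 (chromosome 1, 173477330 to 173488815, plus strand, 5 exons) is the member that uses glutathione in place of thioredoxin and reduces phospholipid hydroperoxides. It was among the most abundant genes of the set at 1071, 1099.8 and 1149 CPM with R1881, and was at 546, 521, 547, 528 and 523 CPM with enzalutamide. The 10 and the 5 libraries were each tightly grouped, with a log2 fold change of -1.05 ± 0.026 (SE, limma, adjusted p = 1.17e-18) and -1.04 against libraries 51 to 55 and -1.06 against libraries 71 to 75. PRDX4 (chromosome X, 23664262 to 23686397, plus strand, 7 exons), the peroxiredoxin of the endoplasmic reticulum, had 114, 123 and 130.1 CPM with R1881 and 76.2, 70.7, 85.1, 79.2 and 78.3 CPM with enzalutamide. The ranges were far apart, and the log2 fold change was -0.65 ± 0.040 (SE, limma, adjusted p = 7.52e-12).

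The abundant cytosolic and mitochondrial peroxiredoxins PRDX1 and PRDX3 were not called. PRDX1 was at 601 ± 20.7 CPM in R1881 libraries and 610.5 ± 22.0 CPM in those with enzalutamide (SD, n = 10 and n = 5), with a 95% interval of -0.04 to 0.09 for its log2 fold change. PRDX3, the mitochondrial member, was at 468 ± 13.7 CPM in R1881 libraries and 481 ± 14.9 CPM in those with enzalutamide, with an interval of -0.02 to 0.10. Both were called higher by edgeR on the recovered reads, with log2 fold changes of 0.07 and 0.08, and with library totals set to 1000000, at 0.12 and 0.13. PRDX2, a cytosolic member, had a wider interval of -0.18 to 0.15, and PRDX5, found in mitochondria, peroxisomes and cytosol, one of -0.03 to 0.24. PRDX5 was among the 3 genes of the set whose R1881 series did not overlap, beside 6.67% of all genes tested. It was called higher against libraries 51 to 55 alone (0.20), with library totals set to 1000000 (0.20) and without R1881 replicate 6 (0.13). Rows of pseudogenes named after TXN, PRDX1, PRDX2, PRDX3 and GPX1 were in the table (10 rows), so that reads of these genes could be split by the counting.

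Of the 4 genes of glutathione synthesis and reduction, 3 fell, beside 32.7% of all genes tested. GSR, the reductase that regenerates glutathione from its oxidized form, was the gene of the set with the strongest decrease. Its lowest, median and highest R1881 values were 379, 435 and 449 CPM, while the replicates with enzalutamide held 210.0, 187, 184, 199 and 194 CPM. Even the lowest R1881 library was far above the highest with enzalutamide, and the log2 fold change was -1.13 ± 0.038 (SE, limma, adjusted p = 3.63e-16). Against each R1881 series the log2 fold change was -1.16 and -1.10. GSS (chromosome 20, 34928432 to 34956027, minus strand, 13 exons), glutathione synthetase, which adds glycine in the last step of synthesis, was at 149, 155 and 159.5 CPM with R1881. With enzalutamide it was at 126, 135, 123, 118 and 126 CPM, a smaller decrease without overlap and a log2 fold change of -0.30 ± 0.031 (SE, limma, adjusted p = 4.11e-08).

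The subunits of glutamate-cysteine ligase, the rate-limiting enzyme of glutathione synthesis, parted. GCLM (chromosome 1, 93885199 to 93909456, minus strand, 7 exons), the modifier subunit, had 56.4, 62.3 and 65.2 CPM with R1881 and 42.0, 38.0, 41.2, 44.9 and 41.0 CPM with enzalutamide. The treatments did not overlap, with a log2 fold change of -0.57 ± 0.045 (SE, limma, adjusted p = 4.81e-10). GCLC, the catalytic subunit, was at 27.2, 33.7 and 38.0 CPM with R1881 and 36.8, 33.6, 37.0, 40.1 and 35.9 CPM with enzalutamide, overlapping ranges with a log2 fold change of 0.15 ± 0.073 (SE, limma, adjusted p = 0.0727) and a 95% interval of 0.0018 to 0.31. Its R1881 series did not overlap, at 36.2 ± 1.42 CPM in libraries 51 to 55 and 29.95 ± 2.47 CPM in libraries 71 to 75 (SD, n = 5 each), and it was called higher against the latter alone, at 0.29, but not against the former, at 0.02. It was also called without R1881 replicate 7 (0.18) or 10 (0.17) or R1881 + enzalutamide replicate 2 (0.18), by edgeR (0.19) and DESeq2 (0.16), and with library totals set to 1000000 (0.25) or TMM factors (0.17). The log2 ratio of GCLC to GCLM was lowest -1.07, median -0.88 and highest -0.77 with R1881 and -0.19, -0.18, -0.15, -0.16 and -0.19 in the replicates with enzalutamide. The 5 values with enzalutamide were nearly the same and all above those with R1881, a difference of 0.72 (two-sided exact permutation, p = 0.000333, again the lower limit, and p = 0.0005 after Benjamini-Hochberg adjustment over 3 ratios). The mean ratio was -0.80 in libraries 51 to 55 and -0.996 in libraries 71 to 75, beside -0.17 with enzalutamide. GCLM alone already parted the treatments, so this test too adds little beyond the GCLM values.

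**Figure D2:**
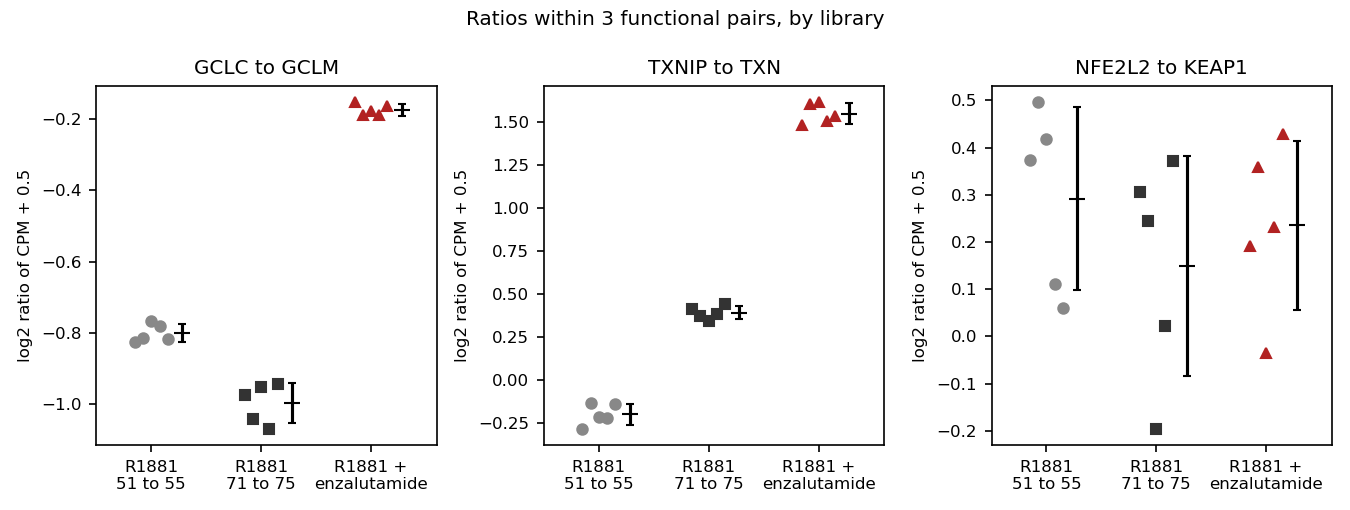
Log2 ratio of CPM + 0.5 (y axis) for GCLC to GCLM, TXNIP to TXN and NFE2L2 to KEAP1 in each library (points), with the mean and SD beside each group of 5 libraries; the R1881 libraries are drawn by number series and the y axes differ and do not start at 0. The groups with enzalutamide lie above both R1881 series for the first pairs and within them for NFE2L2 to KEAP1.

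Glutathione peroxidases, which spend glutathione on peroxides, were not called. GPX4, the selenoenzyme that reduces lipid peroxides in membranes and guards against ferroptosis, had 137, 159 and 209 CPM with R1881 and 137, 165, 155, 133 and 143 CPM with enzalutamide. These ranges overlapped, with a log2 fold change of -0.15, a 95% interval of -0.31 to 0.01 and an adjusted p of 0.104 in limma. It was called lower against libraries 71 to 75 alone (-0.25), without R1881 replicate 7 (-0.17) and without R1881 + enzalutamide replicate 2 (-0.19). GPX1, a cytosolic form, varied from 58.2 to 143 CPM among R1881 libraries, and its interval of -0.46 to 0.25 was the widest of the set. GPX8, a form of the endoplasmic reticulum, was low at 7.49 ± 0.572 CPM in R1881 libraries and 7.74 ± 0.684 CPM in those with enzalutamide, with an interval of -0.10 to 0.19.

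Glutathione transferases, which conjugate glutathione to electrophiles, moved in both directions, with 2 higher, 1 lower and 2 not called of 5. Over all genes tested 29.8% were called higher and 32.7% lower. GSTK1 (chromosome 7, 143244093 to 143270854, plus strand, 8 exons), the transferase of mitochondria and peroxisomes, rose from 40.6, 43.7 and 47.5 CPM (lowest, median and highest) with R1881 to 64.7, 71.1, 68.9, 63.8 and 61.1 CPM with enzalutamide. The groups did not overlap, and the log2 fold change was 0.58 ± 0.045 (SE, limma, adjusted p = 4.79e-10). MGST3 (chromosome 1, 165631213 to 165661796, plus strand, 6 exons), a microsomal transferase with peroxidase activity, went the other way. It held 66.2, 68.3 and 73.4 CPM with R1881 and 55.8, 49.3, 51.4, 51.2 and 47.4 CPM with enzalutamide, without overlap and with a log2 fold change of -0.43 ± 0.038 (SE, limma, adjusted p = 3.35e-09). MGST1, the most abundant transferase of the set, was called higher with a log2 fold change of 0.10 (limma, adjusted p = 0.0326), but its groups overlapped, and the call was lost against libraries 51 to 55 alone (0.07) and without any 1 of 7 libraries (R1881 replicates 1, 4 and 5 and R1881 + enzalutamide replicates 1, 3, 4 and 5). MGST2, which also makes leukotrienes, and GSTO1, of the omega class, had 95% intervals of -0.14 to 0.02 and -0.07 to 0.10. GSTO1 was called higher with library totals set to 1000000 (0.11).

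Of the enzymes that act on superoxide and hydrogen peroxide directly, CAT rose and the superoxide dismutases were not called. CAT (chromosome 11, 34438934 to 34472060, plus strand, 13 exons), the peroxisomal catalase, had 196, 201 and 216 CPM with R1881 and 244, 222, 223, 229 and 231 CPM with enzalutamide. The highest R1881 library was just below the lowest with enzalutamide, with a log2 fold change of 0.18 ± 0.030 (SE, limma, adjusted p = 2.51e-05) that was 0.18 against libraries 51 to 55 and 0.18 against libraries 71 to 75. SOD1, the cytosolic copper-zinc dismutase, was at 228 ± 6.94 CPM in R1881 libraries and 229 ± 5.10 CPM in those with enzalutamide (SD, n = 10 and n = 5), with a 95% interval of -0.05 to 0.07, the narrowest of the genes not called together with PRDX3. SOD2, the mitochondrial manganese form, had an interval of -0.06 to 0.13. MSRA, which repairs oxidized methionine, was at 7.57 ± 0.734 CPM in R1881 libraries and 8.12 ± 0.728 CPM in those with enzalutamide, with an interval of -0.06 to 0.26. With library totals set to 1000000, SOD1 (0.10), SOD2 (0.13) and MSRA (0.19) were called higher.

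The quinone and haem enzymes, several of them classical NRF2 targets, split within each pair. NQO1 (chromosome 16, 69706996 to 69726668, minus strand, 6 exons), the NADPH-dependent quinone reductase, had 189, 204 and 215 CPM with R1881 and 261, 239, 242, 254 and 255 CPM with enzalutamide. All 5 libraries with enzalutamide lay above the R1881 libraries, with a log2 fold change of 0.29 ± 0.033 (SE, limma, adjusted p = 1.25e-07). NQO2 (chromosome 6, 2987987 to 3019755, plus strand, 7 exons), its paralog, which does not use NADPH, was at 33.3, 37.1 and 37.9 CPM with R1881 and at 31.3, 34.2, 31.2, 31.7 and 31.2 CPM with enzalutamide. Replicate 2 with enzalutamide was within the R1881 range, and the log2 fold change was -0.20 ± 0.040 (SE, limma, adjusted p = 0.000276). HMOX2 (chromosome 16, 4474690 to 4510347, plus strand, 6 exons), the constitutive haem oxygenase, fell from 62.1, 68.7 and 74.3 CPM to 47.4, 52.4, 44.3, 46.9 and 45.1 CPM. Its groups did not overlap, with a log2 fold change of -0.54 ± 0.047 (SE, limma, adjusted p = 3.02e-09). HMOX1, the stress-induced haem oxygenase, was scarce at 3.94 ± 0.704 CPM in R1881 libraries and 5.36 ± 0.716 CPM in those with enzalutamide (SD, n = 10 and n = 5), with 46 reads in its poorest library. It was called higher with a log2 fold change of 0.41 ± 0.108 (SE, limma, adjusted p = 0.00251), and its groups overlapped.

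**Figure D3:**
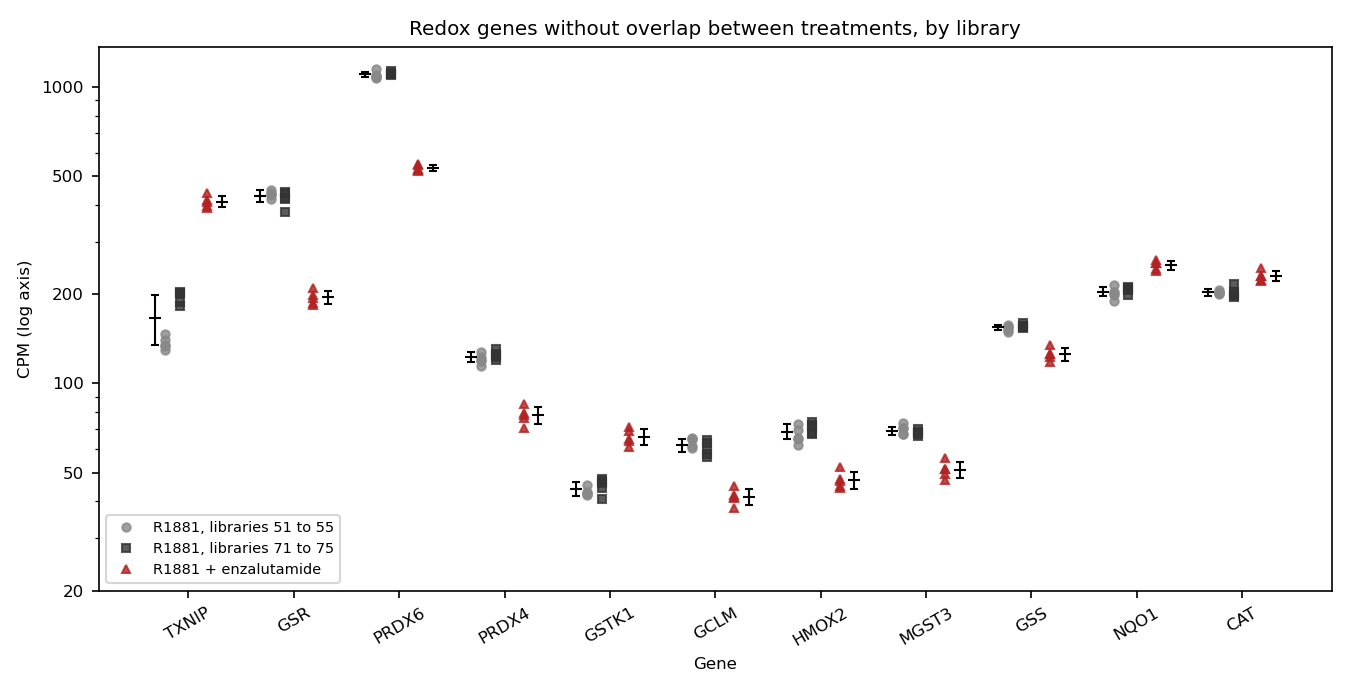
CPM of the 11 redox genes without overlap between treatments in each library (y axis, log scale), with R1881 libraries in grey (51 to 55) and black (71 to 75), R1881 + enzalutamide libraries as red triangles, and the mean and SD of the 10 and 5 libraries as bars. TXNIP, GSTK1, NQO1 and CAT are higher with enzalutamide, the other 7 are lower, and only TXNIP shows a gap between the R1881 series.

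The transcripts of the regulators themselves differed by little. NFE2L2, which encodes NRF2, ranged over 71.3, 78.5 and 82.4 CPM with R1881 and was at 70.8, 64.8, 66.4, 73.7 and 71.2 CPM with enzalutamide. The ranges overlapped, and the log2 fold change was -0.16 ± 0.040 (SE, limma, adjusted p = 0.00143), or -0.07 and not called with library totals set to 1000000. KEAP1, the adaptor that marks NRF2 for degradation, had 58.3, 64.8 and 84.5 CPM with R1881 and 55.1, 66.4, 58.1, 54.6 and 60.5 CPM with enzalutamide. With overlapping groups and a log2 fold change of -0.18 ± 0.075 (SE, limma, adjusted p = 0.0477), its call was not made by edgeR (-0.14) or DESeq2 (-0.17), with any of the 3 other scalings (-0.17 to -0.08), against libraries 51 to 55 alone (-0.11) or without any 1 of 9 of the 15 libraries. NFE2L1, which encodes the related factor NRF1 of proteasome genes, had a log2 fold change of -0.11 (limma, adjusted p = 0.0168), not called without R1881 + enzalutamide replicate 1 or 3 (-0.09 for each), by edgeR (-0.06), with rescaled totals (-0.01) or against libraries 51 to 55 alone (-0.08). The log2 ratio of NFE2L2 to KEAP1 was lowest -0.20, median 0.28 and highest 0.50 with R1881 and 0.36, -0.03, 0.19, 0.43 and 0.23 with enzalutamide. Its difference of 0.01 was within the spread between libraries, with an SD of 0.216 with R1881 and 0.179 with enzalutamide (two-sided exact permutation test, p = 0.898, and the same after Benjamini-Hochberg adjustment over 3 ratios). RNA levels do not measure the protein, by which NRF2 is mainly controlled.

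Levels were compared between genes per length, as mean CPM per kilobase of the canonical transcript. PRDX6 (653) and PRDX1 (636) led the 34 genes with R1881, followed by PRDX2 (434) and PRDX3 (302). With enzalutamide PRDX1 (646) led, PRDX2 (429) was the next, and PRDX6 (315) stood beside PRDX3 (310.0). GSR went from rank 9 (141) to rank 19 (64.2), and TXNIP from rank 22 (57.2) to rank 10 (141). At the low end were HMOX1 (2.53 with R1881 and 3.45 with enzalutamide) and GPX8 (2.01 and 2.07). These values depend on the transcript chosen for length, and neighbours in this order were not tested against each other. Reads may also be shared where annotated genes overlap, and the strand setting of the counting is unknown here. Of the genes given library by library, TXNIP, GSR, PRDX4, GCLM, MGST3, CAT, TXN and GPX4 overlapped no other gene. Genes on the opposite strand overlapped PRDX6 (PRDX6-AS1), GSS (MYH7B), HMOX2 (NMRAL1), GSTK1 (TMEM139-AS1) and NQO1 (a gene without a symbol). Genes on the same strand overlapped TXNRD1 (EID3 and RPL18AP3), NQO2 (LINC01011), NFE2L2 (MIR3128 and others) and KEAP1 (a gene without a symbol), and TXNRD1, NQO2 and NFE2L2 had opposite-strand overlaps too. GCLC overlapped genes on both strands, GCLC-AS1 among them.

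Other genes of the same pathways were taken from 5 lists that did not include the 34 genes. Their counts of calls stand against 62.5% of all genes called, 29.8% higher and 32.7% lower, and nothing particular to a list was tested. Of the NRF2 partners and regulators, 3 were higher, 4 lower and 5 not called of 12 tested, beside the 62.5% of all genes called. NFE2L3, a relative of NRF2, rose from 13.1 ± 1.49 to 18.1 ± 0.776 CPM (mean ± SD, n = 10 and n = 5; log2 fold change 0.46, limma adjusted p = 1.28e-05), and SQSTM1, which sequesters KEAP1, and BACH1, a repressor at antioxidant response elements, were higher by 0.26 and 0.20. RBX1 (-0.43), the ring subunit of the ligase that KEAP1 recruits, and FBXW11 (-0.40), a receptor of another ligase for NRF2, fell, as did DPP3 (-0.25), which binds KEAP1, and MAFG (-0.23), a DNA-binding partner of NRF2, whose call was lost with library totals set to 1000000 (-0.14). Of 22 other NRF2 target enzymes and transporters 8 were higher and 9 lower (29.8% and 32.7% of all genes), and their median log2 fold change was -0.13, beside -0.01 over all genes. The most strongly lower were the exporters ABCC4 (from 1086 ± 53.1 to 209.9 ± 7.37 CPM, -2.37, limma adjusted p = 6.3e-22) and ABCC1 (from 286 ± 11.7 to 93.3 ± 5.19 CPM, -1.61), which also carry glutathione and its conjugates, followed by UGDH (-0.45) of glucuronic acid synthesis and TALDO1 (-0.42) of the pentose phosphate pathway. EPHX1 (0.39), an epoxide hydrolase, TRIM16L (0.35) and the ferritin chains FTH1 (0.21) and FTL (0.21) were higher. SLC7A11, the cystine importer for glutathione synthesis, was not called, at -0.02. It and AKR1C1, AKR1C2 and AKR1C3 were named after their values were seen. The AKR1C genes are nearly identical in sequence and together scarce, and were higher by 1.21, 1.05 and 1.18.

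Of 17 other thioredoxin-fold and methionine repair genes 5 were higher, 10 lower and 2 not called, beside 29.8% higher and 32.7% lower over all genes, with a median log2 fold change of -0.24. All 3 sestrins, stress proteins that help to restore peroxiredoxins and restrain mTORC1, were higher. SESN1 rose from 214 ± 11.1 to 539.7 ± 22.3 CPM (1.34, limma adjusted p = 2.26e-17), SESN3 from 220.3 ± 15.1 to 497 ± 29.3 CPM (1.17) and SESN2 from 22.0 ± 2.74 to 31.2 ± 2.93 CPM (0.50). The glutaredoxins were lower in 4 of 4, from GLRX2, a mitochondrial form (15.8 ± 1.14 to 5.81 ± 0.547 CPM, -1.37, limma adjusted p = 1.34e-13), and GLRX (-0.86) to GLRX3 (-0.33) and GLRX5 (-0.15). The last pair was named after its values were seen. GLRX5 was at -0.05 and not called with library totals set to 1000000. NXN (-0.69), a nuclear thioredoxin relative, and TXNDC12 (-0.52), of the endoplasmic reticulum, fell too, and the methionine repair enzyme MSRB2 (0.36) rose. Its relatives, named after their values were seen, went both ways: MSRB1 fell without overlap (-0.39), and the scarce MSRB3 rose (1.19). Of 18 other glutathione genes 4 were higher, 8 lower and 6 not called, beside the same shares of all genes, with a median of -0.17. GSTA1 (from 7.28 ± 1.27 to 16.7 ± 1.55 CPM, 1.15, limma adjusted p = 3.11e-09), GSTA4 (0.54) and GGT7 (0.39) were higher, and GSTT2B (-0.61), GGCT (-0.55), CTH (-0.43) and GLO1 (-0.37) were lower. Of 9 tested sources and other scavengers of superoxide and peroxide 2 were higher, 4 lower and 3 not called, again beside 29.8% and 32.7% of all genes. Among them ERO1A, the peroxide-producing oxidase of the endoplasmic reticulum, fell from 39.7 ± 2.09 to 21.2 ± 1.45 CPM (-0.89, limma adjusted p = 1.17e-12), PXDN fell (-0.42) and SOD3 was called lower with overlapping groups (-0.30, lost with the rescaled totals at -0.21), while PON2 was higher (0.19). NOX5, a superoxide-producing oxidase outside the naming rule at a mean below 5 CPM, had a log2 fold change of -1.13. In these lists GSTA1, GSTA4 and GSTT2B belong to families of close copies, whose reads could be split or shared by the counting.

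**Figure D4:**
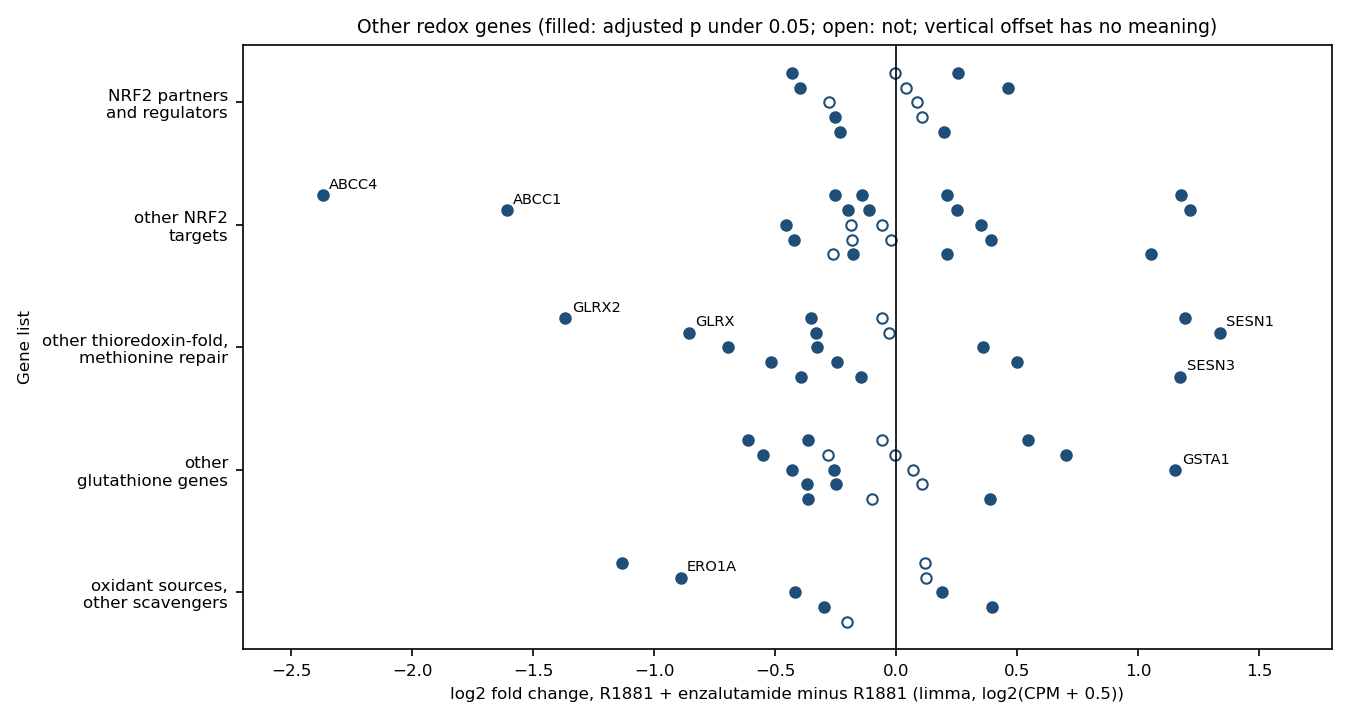
Log2 fold change (x axis, R1881 + enzalutamide minus R1881) of the genes of 5 further redox lists (y axis), with filled points for genes called by limma and open points for others; vertical offsets within a list carry no meaning. ABCC4 at -2.37 and SESN1 at 1.34 are the outermost points.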

How the data were processed

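RNA-seq of LNCaP cells was reported for 15 libraries (10 R1881 and 5 R1881 + enzalutamide), grouped by their labels. The published methods give the numbers of replicates the other way round. Per the labels and methods, the authors used STAR on the GRCh38 genome for single-end reads and featureCounts for genes (versions not given in the sources used here, apart from bcl2fastq 2.17). They deposited a per-gene signal in CPM with their own scaling. Library sums were 1053406 to 1078567 with R1881 and 985580 to 1008992 with enzalutamide, without overlap. Plain CPM had been foreseen. The steps of these deposited signal values gave whole reads for 100% of values (tolerance 0.01 reads), so that edgeR 4.0.16 and DESeq2 1.42.0 could be run on recovered reads as alternatives. edgeR called 10744 genes and DESeq2 10552, beside 10660 in the main test. That test was limma 3.58.1 in R 4.3.3 on log2(CPM + 0.5) of genes averaging at least 0.5 CPM, with treatment as the only term and Benjamini-Hochberg adjustment over 17046 genes. Within-library ratios were compared by exact permutation.

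Gene positions were taken from GENCODE 44, promoter windows from RefSeq (GRCh38.p14). On simulated data of 16739 genes, 200 of them changed 2-fold, the test called 100% of these and 8 of 16539 unchanged genes. The simulated libraries had the same fixed variability for all genes and no difference between R1881 series. In the data 62.5% of genes were called, so that the simulation does not give the rate of false calls there. All same-group pairs of libraries differed by more than sampling noise, the lowest chi-square value per degree of freedom being 1.62. The methods call the libraries biological replicates, and the labels name no separate cultures, so that p-values measure the spread between these libraries, which may be partly technical.

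The genes and lists were chosen with earlier results of these data known. Values in full were given for the 16 genes with the largest absolute log2 fold change among those called with a mean of at least 5 CPM, and for TXN, GPX4, NFE2L2 and KEAP1. In other lists up to 4 genes in each direction were named by the same rule. Outside the rule, GCLC was given library by library beside GCLM. Alternatives were other scalings, filters, pseudocounts (0.1 and 1), tests, each R1881 series alone, a replicate block and each library left out. With library totals set to 1000000 the median log2 fold change of all genes moved from -0.01 to 0.07.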

Additional observations from a re-analysis of the deposited data

Results flagged for a closer look

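In 76 groups of 5 or 10 values, 4 held a library that stood apart from its group by Dixon's criterion, where chance gives about 1 in 20, or 3.8. For GSR, R1881 replicate 6 was the lowest of its group at 379 CPM, with the nearest at 417 and the highest at 449 CPM, and it remained above all libraries with enzalutamide. For NQO2, R1881 + enzalutamide replicate 2 was the highest of its group at 34.2 CPM, with the nearest at 31.7 CPM. The same library was the lowest of its group for MGST1 at 252 CPM, with the nearest at 274 CPM. In depth, R1881 + enzalutamide replicate 5 held 25416052 reads, the most of its group, with the nearest at 22329140 reads.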

How the results depend on the processing

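Of 407 fold changes of redox genes recomputed under other settings, 358 kept direction and side of the threshold, 19 lost the call, 18 gained it and 12 turned sign. With 1 library left out, 471 of 510 kept both, 22 lost the call, 6 gained it and 11 turned sign. The causes were not tested. With library totals set to 1000000, 14 redox genes were called higher and 8 lower, in place of 6 and 13. Of the further lists, 5 NRF2 partners were then higher (3 in the main test) and 7 other glutathione genes higher and 5 lower (4 and 8). With edgeR 5 NRF2 partners were higher, and against R1881 libraries 51 to 55 only 5 other glutathione genes were lower. Asking also for a 1.5-fold change left 1 redox gene higher and 3 lower, 0 and 0 NRF2 partners (3 and 4 without it), 3 and 2 other NRF2 targets (8 and 9), 3 and 3 thioredoxin-fold genes (5 and 10), 2 and 1 other glutathione genes, and 0 and 2 oxidant sources and scavengers (2 and 4). With a mean of at least 5 CPM, 4 other NRF2 targets and 1 oxidant source or scavenger were higher.

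Sign changes were found for genes not called. TXN2 was at 0.083 with totals of 1000000, 0.0049 with TMM factors, 0.032 with edgeR, 0.0019 with DESeq2 and 0.013 against libraries 51 to 55 only. PRDX2 was at 0.078 with totals of 1000000, 0.027 with edgeR and 0.041 against libraries 51 to 55 only, and MGST2 was at 0.035 with totals of 1000000. Against libraries 51 to 55 only, GPX1 was at 0.11, SOD2 at -0.013, GSTO1 at -0.029 and the ratio of NFE2L2 to KEAP1 at -0.057. Leaving out 1 library gave -0.021 to 0.0048 for TXN2, -0.080 to 0.037 for PRDX2, -0.21 to 0.0067 for GPX1, -0.0042 to 0.017 for SOD1, -0.0086 to 0.026 for GSTO1 and -0.034 to 0.082 for the ratio of NFE2L2 to KEAP1. It gave 5 to 7 redox genes higher and 10 to 13 lower.

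Replicate numbers 1 to 5 are only names here. Same-numbered libraries had correlations of deviations from -0.07 to 0.07, and 0 of 5 correlated best with their own number. With a replicate block, 7 redox genes were higher and 12 lower. GPX4 (-0.18, limma adjusted p = 0.0148) and GCLC (0.18, 0.0217) were then called, and TXN (-0.089, 0.0838) and TXNRD1 (-0.10, 0.0745) were not. The ratio of GCLC to GCLM differed by 0.74 and that of TXNIP to TXN by 1.37 (both exact permutation adjusted p = 0.0938, in a design whose smallest p is 0.0625). Depth limits HMOX1 (46 reads in its poorest library), GPX8 and MSRA most.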
